A study of Mus musculus with 16 samples.

Results

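The DNA replication and G1/S genes are the genes a cell uses to commit to and carry out the copying of its DNA, and 40 of them, listed by name, were followed in cultured explants of mouse epicardium. A total of 39 had a row in the deposited table of 15805 genes and all 39 passed the filter on low counts, which left 15675 genes tested. Fen1, which trims flaps from the lagging strand, was not analysed here. The rule picks members by gene name alone, though the list was put together with earlier results of these data known. It was split by role into 6 G1/S cyclins and E2F, 10 origin licensing genes, 15 replication fork genes (14 with a row), 4 nucleotide supply genes and 5 genes of chromatin and repair at the fork.

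RNA was sequenced from 8 explants with blebbistatin and 8 controls without it, all primary explants of epicardial cells from C57BL6 mice on a collagen gel. Blebbistatin blocks the ATPase of myosin II, and was given to inhibit the nonmuscle forms. The labels write its amount as 20 with a unit that differs between entries, so the concentration is not settled here. The sources used here do not give whether controls received its solvent or whether explants shared animals. P-values therefore measure the spread between these explants.

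Cells that leave G1 make D cyclins and then E cyclins, whose kinases free the E2F transcription factors from the retinoblastoma protein, and E2F then switches on the genes for replication. In G1 the origin recognition complex, Cdc6 and Cdt1 load the ring of Mcm2 to Mcm7 onto DNA, and in S phase Cdc45 and the GINS complex turn that ring into the active helicase while polymerases copy both strands. Epicardial cells are known to divide and move when taken into culture, and the last step of cell division, cytokinesis, needs myosin II.

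The promoters of these genes are shown first because the list is known for its E2F control. In the RefSeq promoters of GRCm38.p6, windows from 250 bases before to 50 bases after a gene's start, 31 of the 39 members had an entry. The E2F words TTTCCCGC, TTTCGCGC, TTTGCCGC and TTTGGCGC, searched on both strands, were present in 15 of these 31 (48.4%), against 704 of 27025 genes with an entry (2.6%). By role they were present in 7 of 8 licensing genes, 6 of 11 fork genes, 2 of 5 chromatin and repair genes, 0 of 4 nucleotide supply genes and 0 of 3 cyclin and E2F genes. The word TTTGAA, found in promoters of many mitosis genes, was in 3 of 31 members, 16 of 21 mitosis genes and 5466 of 27025 genes (20.2%). A match describes the letters of the window and does not show binding. A window without an E2F word likewise does not show that E2F has no control of the gene. Members with an E2F word had a median log2 fold change of 0.38, with 14 of 15 positive, and the 16 with an entry and no word one of 0.07, with 12 positive. The 8 members with no entry had the highest median, 0.45, with 7 positive. Whether those carry a word is unknown, so the comparison covers only part of the members. None of these medians was tested. The 250 bases before the start of Mcm6 (GRCm38.p6, chr1:128359706-128359955, minus strand) hold 3 words, the first pair overlapping, and are printed whole with the words in capitals:
Mcm6: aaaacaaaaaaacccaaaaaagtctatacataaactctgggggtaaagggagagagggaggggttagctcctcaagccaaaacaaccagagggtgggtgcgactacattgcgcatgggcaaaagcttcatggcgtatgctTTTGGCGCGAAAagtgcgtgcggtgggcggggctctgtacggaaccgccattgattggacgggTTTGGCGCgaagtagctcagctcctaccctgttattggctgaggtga

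For comparison, 30 bases around a word are given for Clspn, the member called in the test below, and for 4 members of the licensing and fork roles, again with words in capitals, on the strand of the gene. They lie at chr4:126556990-126557019 (Clspn, plus strand), chr4:108579416-108579445 (Orc1, plus), chr1:20820275-20820304 (Mcm3, minus), chr8:75109345-75109374 (Mcm5, plus) and chr5:151651200-151651229 (Rfc3, minus). In Mcm5 a forward and a reverse word overlap, and in Rfc3 a pair stands side by side.
Clspn: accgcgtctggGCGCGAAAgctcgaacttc
Orc1: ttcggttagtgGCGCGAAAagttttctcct
Mcm3: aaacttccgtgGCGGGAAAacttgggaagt
Mcm5: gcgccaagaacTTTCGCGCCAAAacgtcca
Rfc3: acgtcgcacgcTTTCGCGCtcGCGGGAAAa

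Libraries held 20176386 to 89620195 counts with blebbistatin and 27065611 to 60321622 in controls. The epicardial markers Wt1, Tbx18 and Tcf21 were all expressed, and 12 epicardial markers summed to 1218–3954 CPM in treated explants and to 1795–4207 CPM in controls, where CPM is the count scaled to a common library size with edgeR's TMM factors. None of the 12 passed the test and 10 had a negative log2 fold change. The largest differences were in the epithelial keratins Krt18 (−1.41, edgeR adjusted p = 0.157), Krt19 (−1.33, adjusted p = 0.0593) and Krt8 (−1.28, adjusted p = 0.285), each under the control median in 8 of 8 treated libraries, as was Tbx18 (−0.68, adjusted p = 0.0794). Bnc2 had a value of the other sign (0.96, adjusted p = 0.0593) and exceeded the control median in all 8. Summed over 9 macrophage markers the levels were 280.5 to 3490 CPM in treated explants and 312 to 4154 CPM in controls, highest in blebbistatin 3 and control 6. Lyz2 averaged 712 CPM of a mean sum of 1158 in treated explants and 954 CPM of 1263 in controls. Its log2 fold change was −0.42, and 8 of the 9 markers had a positive one. Over 5 cardiomyocyte markers, of which Tnnt2 made up most, the levels were 681 to 1119 CPM in treated explants and 435 to 913 CPM in controls. Over 4 endothelial markers they were 17.6 to 50.4 CPM in treated explants and 31.2 to 58.9 CPM in controls. Myh6, Myh7, Tnni3, Nppa, C1qa, Cdh5, Tie1, Emcn and Cldn5 were not analysed here. Mitochondrial genes took 16.8 to 25.5% of counts in treated explants and 13.8 to 18.9% in controls, and Y-linked genes exceeded 100 CPM in sum in 5 of 8 treated explants and 2 of 8 controls. The part of these differences in the results below was tested only where a fit with a macrophage or Y-linked covariate is named. A fit without the mitochondrial genes, which does not use their share as a covariate, called 95 genes. In that fit the median log2 fold change of the members was 0.279, and Clspn had an edgeR adjusted p of 0.0481. In such bulk libraries a different number of cycling cells and a different amount of RNA per cycling cell cannot be told apart.

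With blebbistatin, 1 replication gene rose, none fell and 38 did not pass the test. The gene that rose was Clspn, about 2.15-fold. The background in the whole table was 40 genes higher, 0.255%, and 55 lower, 0.351%, by edgeR's quasi-likelihood test at an adjusted p under 0.05, and the count of 1 among 39 rests on a single gene, so nothing is read from its share. At an unadjusted p under 0.05, 6 members were higher and 1 lower, where the background was 6.21% higher and 5.98% lower. Log2 fold changes of the members had a median of 0.28, against 0.04 over all tested genes, and 33 of 39 values were positive, against 54.1% of all tested genes. The members were chosen with earlier results of these data known and share their libraries, so these counts are a description and carry no test. As single libraries were left out, 26 to 35 values were positive, with the low end without blebbistatin 5.

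**Figure D1:**
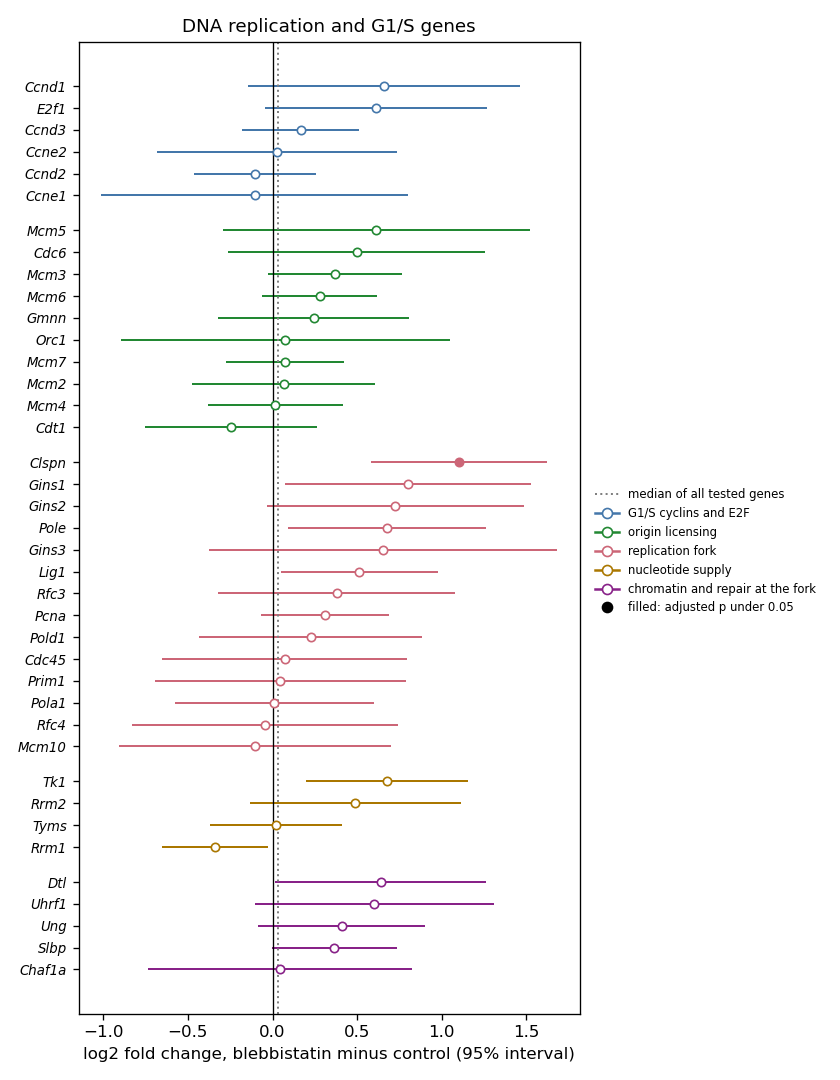
Log2 fold change, blebbistatin minus control, of each of 39 members with its 95% interval from edgeR, coloured by role; the dotted line is the median of all tested genes at 0.04. Clspn alone is filled, for an adjusted p under 0.05, and 32 of the 38 open points lie above 0.

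The roles compared as follows. Licensing genes had a median log2 fold change of 0.16, fork genes one of 0.35, nucleotide supply genes one of 0.26, chromatin and repair genes one of 0.41 and the cyclins with E2F1 one of 0.10. Mean log2 CPM over the licensing genes was 4.04 ± 0.41 with blebbistatin and 3.91 ± 0.24 in controls (SD, n = 8 each). Over the fork genes it was 3.11 ± 0.37 with blebbistatin and 2.73 ± 0.22 in controls, and over the nucleotide supply genes 5.22 ± 0.28 with blebbistatin and 5 ± 0.34 in controls. Every mean ± SD below is likewise over 8 libraries a group. The ranges of the groups overlapped for all 3 roles, and no difference between roles was tested. The order of the role medians was not stable. Without blebbistatin 3 the medians were lower but kept their order, at 0.09 for licensing, 0.15 for nucleotide supply and 0.25 for the fork. Without control 7 the nucleotide supply median was 0.40, above the fork median of 0.31. With the Y-linked covariate the medians were 0.20 for licensing, 0.21 for the fork and 0.14 for nucleotide supply. Without both blebbistatin 3 and control 6 they were 0.12, 0.24 and 0.09 in the same order of roles.

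Clspn, the gene of Claspin, an adaptor that travels with the fork and passes the checkpoint signal to the kinase Chk1, lies on chromosome 4 at 126556935 to 126593903 (GRCm38, plus strand). Its level ran from 8.56 to 20.7 CPM with blebbistatin, with a median of 13.0, and from 3.33 to 9.81 CPM in controls, with a median of 6.78. Every treated explant exceeded the median control, and blebbistatin 6 alone lay below the highest control, so the groups overlapped by that library. The means were 14.2 ± 4.55 CPM in treated explants and 6.60 ± 2.09 CPM in controls (SD, n = 8 each). The difference was 1.10 on the log2 scale (SE 0.25, edgeR adjusted p = 0.0464), or 2.15-fold with a 95% interval of 1.5 to 3.07. The call stood close to the threshold: it held with DESeq2 (adjusted p = 0.00193) and limma voom (adjusted p = 0.0379) and ended with the Y-linked covariate (adjusted p = 0.123), while the log2 fold change stayed between 1.00 and 1.21 over 27 alternatives. It held without blebbistatin 2, 4 or 6 or control 6, and ended without any other single library, with adjusted p-values of 0.0583 to 0.0914.

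Other fork genes did not pass. The GINS subunits, partners of the helicase ring, had log2 fold changes of 0.80 (Gins1, 95% interval 0.07 to 1.53), 0.73 (Gins2, −0.03 to 1.49) and 0.65 (Gins3, −0.37 to 1.68). Gins1 ran from 1.56 to 5.44 CPM with blebbistatin, median 3.69, and from 0.68 to 3.12 CPM in controls, median 2.19 (edgeR adjusted p = 0.352). The control median was exceeded in 7 of 8 treated explants, but the ranges overlapped widely at these low levels. Gins2 shares 2758 of its 4097 exonic bases with Gse1 on the other strand, and since the strand setting of the counting is not stated, its value is uncertain. Cdc45, which completes the active helicase, had a log2 fold change of 0.07 (95% interval −0.65 to 0.79), and Mcm10, a factor that helps to start it, one of −0.10 (−0.91 to 0.70).

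The polymerase genes did not pass either. Pole, for the catalytic subunit of the leading strand polymerase epsilon, ran from 10.6 to 41.5 CPM with blebbistatin, median 21.4, and from 7.03 to 21.3 CPM in controls, median 14.3 (log2 fold change 0.68, SE 0.28, edgeR adjusted p = 0.319). Blebbistatin 3 and 5 were the highest, at 34.8 and 41.5 CPM. Pold1, for polymerase delta, had a log2 fold change of 0.22 (95% interval −0.43 to 0.88), and Pola1 and Prim1, for the polymerase alpha and primase that lay down primers, had 0.01 (−0.58 to 0.60) and 0.05 (−0.69 to 0.79). The intervals of these genes span more than a 1.5-fold change in either direction or reach it in one. A change of that size is therefore not excluded for any of them, and the 95% interval of Pole (0.09 to 1.26) lay above 0.

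Lig1, the ligase that joins Okazaki fragments, ran from 17.2 to 34.7 CPM with blebbistatin, median 22.4, and from 7.20 to 25.1 CPM in controls, median 16.9. Each of the 8 treated explants exceeded the control median, though control 1 stood above 6 of them (log2 fold change 0.51, SE 0.22, edgeR adjusted p = 0.35). Pcna, the sliding clamp of the polymerases, ran from 73.0 to 190.5 CPM with blebbistatin, median 87.7, and from 65.5 to 105 CPM in controls, median 81.9 (log2 fold change 0.31, adjusted p = 0.52). Its higher mean with blebbistatin rested on blebbistatin 3 and 8, the only treated libraries above the highest control. Of the clamp loader genes, Rfc3 had a log2 fold change of 0.38 (95% interval −0.32 to 1.08) and Rfc4 one of −0.04 (−0.83 to 0.74).

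**Figure D2:**
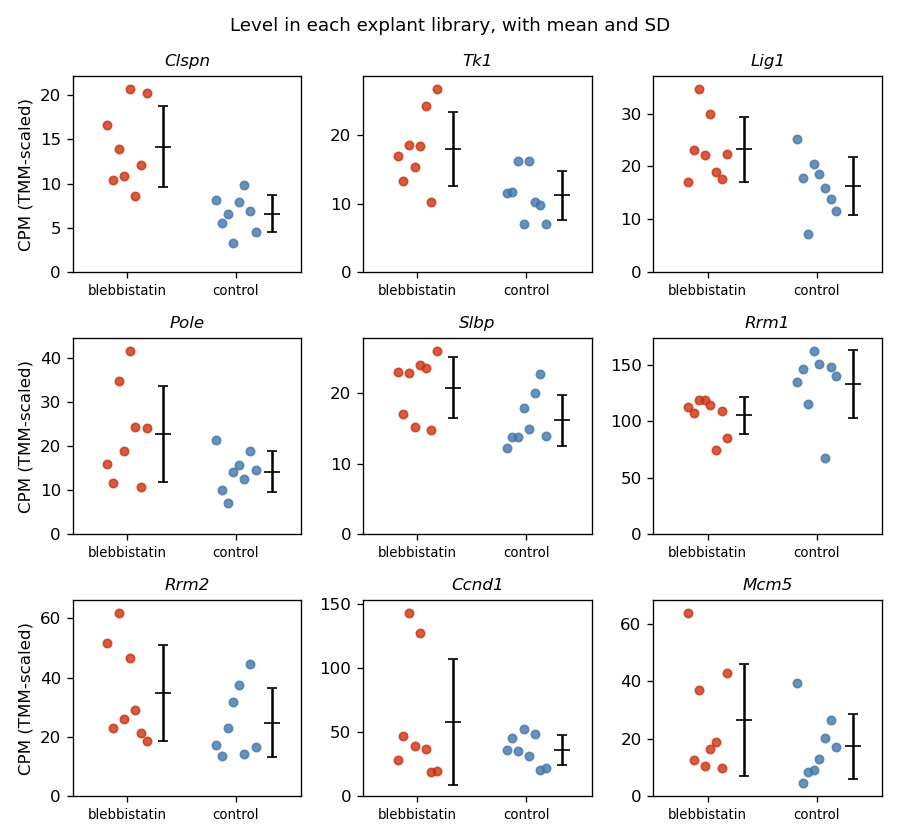
CPM of 9 members in each library, blebbistatin left and control right of each panel, with the mean and SD beside the points and axes from 0. Clspn overlaps between groups by 1 treated library, Rrm1 is lower than the control median in all 8 treated libraries, and Ccnd1 has 2 treated libraries far above the rest.

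Among origin licensing genes none passed. The 6 subunits of the Mcm2 to Mcm7 ring, which unwinds DNA, had positive log2 fold changes of 0.02 to 0.61, with a median of 0.18. Mcm3 ran from 20.6 to 42.3 CPM with blebbistatin, median 26.4, and from 13.7 to 32.4 CPM in controls, median 24.1. The middle of the controls was exceeded by 7 of the 8 treated libraries (log2 fold change 0.37, SE 0.19, edgeR adjusted p = 0.446). Mcm6 had 38.8 ± 8.66 CPM in treated explants and 31.9 ± 6.48 CPM in controls (0.28, adjusted p = 0.522), and Mcm4 44.5 ± 13.5 CPM in treated explants and 44.1 ± 11.1 CPM in controls (0.02, 95% interval −0.38 to 0.41). For Mcm4 and for Mcm7 (0.07, −0.28 to 0.42) the intervals exclude a change of 1.5-fold in either direction. Mcm2 had a log2 fold change of 0.06 (95% interval −0.48 to 0.61), and 3 of 8 treated libraries exceeded its control median.

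Mcm5 varied most among the ring subunits. It ran from 9.99 to 63.7 CPM with blebbistatin, median 17.7, and from 4.80 to 39.5 CPM in controls, median 15.0. Blebbistatin 1, 8 and 3 and control 1 held the high values, at 63.7, 43.0, 37.0 and 39.5 CPM. Its log2 fold change was 0.61 with an SE of 0.43 (edgeR adjusted p = 0.621), and its SD within groups was 0.99 on the log2 CPM scale, against 0.31 to 0.58 for the other 5 subunits. Summed over the ring, blebbistatin explants had 134.3 to 313.7 CPM and controls 134.2 to 224.7 CPM, so the groups shared the same lower end and blebbistatin 1, 3, 5 and 8 lay above the highest control.

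The loaders were low. Orc1, the largest subunit of the origin recognition complex, had 5.72 ± 4.73 CPM in treated explants and 5.42 ± 2.02 CPM in controls, and Cdc6, which helps to load the ring, 7.02 ± 4.29 CPM in treated explants and 4.97 ± 1.93 CPM in controls (log2 fold changes 0.07 and 0.50, edgeR adjusted p = 0.965 and 0.637). Cdt1, which brings the ring to the origin, was the licensing gene with a negative value, −0.25 (95% interval −0.76 to 0.27), and Gmnn, for the Cdt1 inhibitor geminin, had 0.24 (−0.32 to 0.81).

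The nucleotide supply genes had values of both signs, and none passed. Tk1, the thymidine kinase that salvages thymidine, ran from 10.2 to 26.7 CPM with blebbistatin, median 17.6, and from 7.02 to 16.2 CPM in controls, median 10.9. The control median was exceeded by 7 of 8 treated libraries (log2 fold change 0.68, SE 0.23, 95% interval 0.20 to 1.15, edgeR adjusted p = 0.199). Rrm1, the large subunit of ribonucleotide reductase, which makes deoxynucleotides, was the lowest of all members by fold change, at −0.34 (SE 0.15, 95% interval −0.66 to −0.03, edgeR adjusted p = 0.36).

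Rrm1 ran from 74.1 to 118.9 CPM with blebbistatin, median 111, and from 67.5 to 162.1 CPM in controls, median 143. Each treated library was under the control median, and control 6, at 67.5 CPM, lay below all of them. Rrm2, the small subunit of the same enzyme, whose protein is made in S phase, ran from 18.5 to 61.8 CPM with blebbistatin, median 27.6, and from 13.7 to 44.5 CPM in controls, median 20.1 (log2 fold change 0.49, SE 0.30, edgeR adjusted p = 0.545). The ratio of Rrm2 to Rrm1 CPM was 0.195 to 0.522 with blebbistatin and 0.0936 to 0.301 in controls, highest in blebbistatin 3, 1, 5 and 6, which lay above all controls. This ratio was chosen after the values were seen and has no test. Tyms, which makes thymidylate, had 34.7 ± 9.11 CPM in treated explants and 34.1 ± 9.37 CPM in controls (0.02, 95% interval −0.37 to 0.41), an interval that excludes 1.5-fold.

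Chromatin and repair genes had positive values throughout, and none passed. Slbp, whose protein binds the stem loop of histone mRNAs, ran from 14.8 to 25.9 CPM with blebbistatin, median 22.9, and from 12.2 to 22.6 CPM in controls, median 14.4. Each of the 8 treated libraries exceeded the control median (log2 fold change 0.37, SE 0.18, edgeR adjusted p = 0.414), and the ranges overlapped. Dtl, a part of the ubiquitin ligase that removes Cdt1 in S phase, had 21.8 ± 10.1 CPM in treated explants and 14 ± 5.63 CPM in controls (0.64, 95% interval 0.02 to 1.26, adjusted p = 0.397). Uhrf1, which helps to copy DNA methylation, had 0.60 (−0.11 to 1.31), and Ung, which removes uracil from DNA, 0.41 (−0.08 to 0.90). Chaf1a, for a subunit of the histone chaperone CAF-1, had 0.04 (−0.74 to 0.82), but it shares 4648 of its 8854 exonic bases with Ubxn6 on the other strand and its value is uncertain.

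The entry into S phase is governed by cyclins, and the D cyclin with the highest level per length was Ccnd2. Per kb of exon it averaged 91.3 ± 22.8 CPM in treated explants and 98.1 ± 22.2 CPM in controls, the highest of all 39 members, ahead of Pcna at 43.5 ± 16.7 in treated explants and 35.1 ± 6.01 in controls. Ccnd1 had 12.2 ± 10.4 CPM per kb in treated explants and 7.75 ± 2.48 CPM per kb in controls, and Ccnd3 7.76 ± 1.06 in treated explants and 6.91 ± 2.16 in controls (SD, n = 8 each). Ccnd2 thus took 59.5 to 90.3% of the summed D cyclin level per kb with blebbistatin and 78.3 to 91.1% in controls, lowest in blebbistatin 3. Copies of Ccnd3, Pcna and Tyms annotated as pseudogenes may share their reads.

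**Figure D3:**
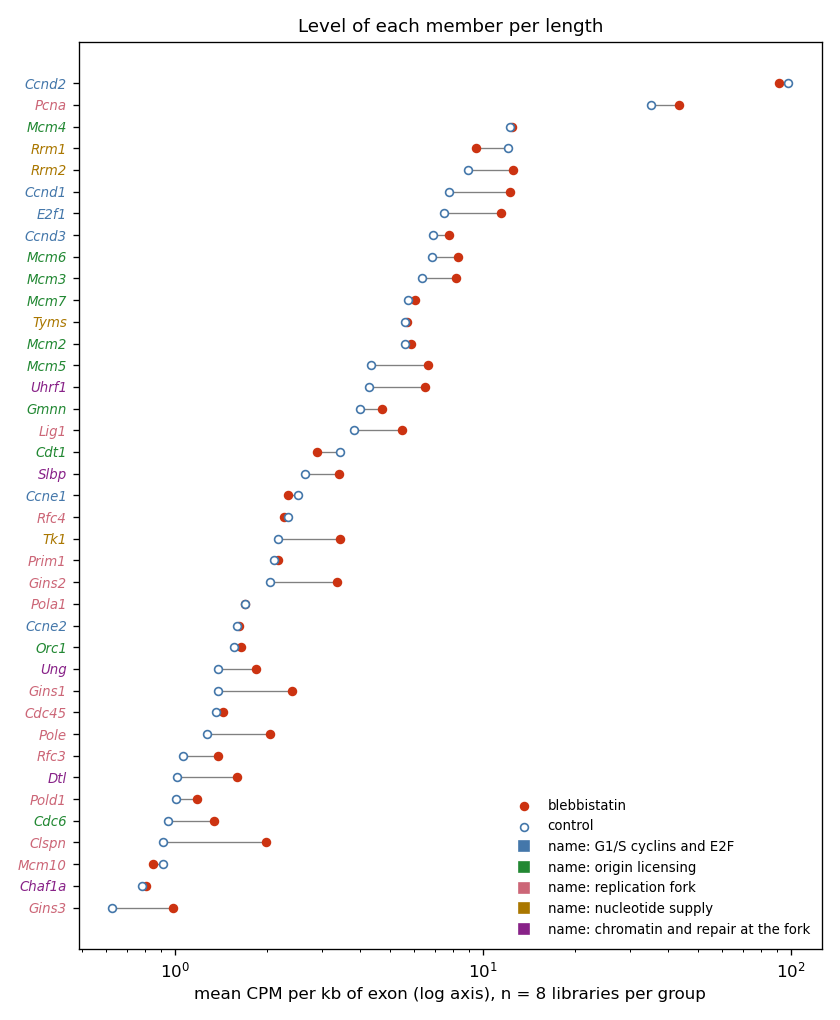
Mean CPM per kb of exon for each of 39 members on a log axis, blebbistatin filled and control open, ordered by the control level, with names coloured by role. Ccnd2 and Pcna stand apart at the top, and Clspn shows the widest gap between the groups.

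Between the groups Ccnd2 had a log2 fold change of −0.10 (95% interval −0.47 to 0.26, edgeR adjusted p = 0.848), an interval that excludes 1.5-fold. Ccnd3 had a log2 fold change of 0.17 (95% interval −0.18 to 0.51, edgeR adjusted p = 0.739), with 7 of 8 treated libraries above the control median. Ccnd1 ran from 19.2 to 143 CPM with blebbistatin, median 38.2, and from 20.7 to 52.2 CPM in controls, median 35.6. Blebbistatin 3 and 5, at 143 and 128 CPM, stood far above all other libraries, and the other 6 treated libraries lay within the range of the controls or just under it (log2 fold change 0.66, SE 0.38, edgeR adjusted p = 0.523). Ccnd1 also shares 1100 of its 4709 exonic bases with a gene on the other strand, annotated as LTO1. E2f1, the transcription factor, had 36.1 ± 22.1 CPM in treated explants and 23.7 ± 9.46 CPM in controls (0.61, adjusted p = 0.448), with blebbistatin 8 and 1 highest at 79.4 and 58.9 CPM. The E cyclins, which start S phase, were low, with Ccne1 at 6.20 ± 3.80 CPM in treated explants and 6.67 ± 4.21 CPM in controls (−0.11, 95% interval −1.01 to 0.80) and Ccne2 at 5.67 ± 1.40 CPM in treated explants and 5.58 ± 3.04 CPM in controls (0.03, −0.69 to 0.74).

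Explants within a group differed widely. Of 39 members, 35 lay above the median of their own group in blebbistatin 3 and 29 in blebbistatin 5, but 5 in blebbistatin 7, 7 in blebbistatin 2 and 8 in blebbistatin 4. In controls the count ran from 12, in controls 3 and 8, to 27, in control 5. The mean log2 CPM over the members was 3.52 to 4.39 with blebbistatin and 3.43 to 3.99 in controls, with an SD of 0.34 among treated explants and 0.20 among controls, and whether the spread differs was not tested. Blebbistatin 3, the highest, also had the highest macrophage sum of its group. Without it and control 6 the median log2 fold change of the members was 0.23, and Clspn kept its call at 1.2 (edgeR adjusted p = 0.0412).

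**Figure D4:**
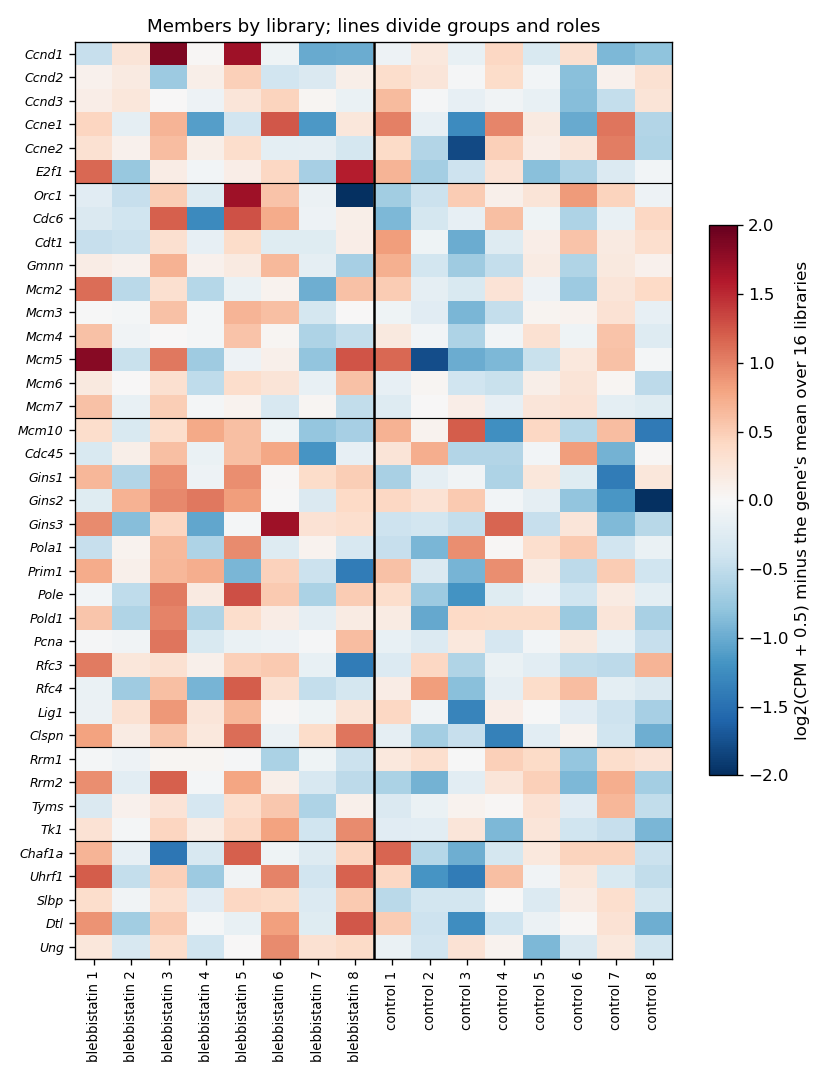
Members in rows by role and libraries in columns, blebbistatin left of the bold line and control right, coloured by the log2 level minus the gene's mean over 16 libraries. Blebbistatin 3 and 5 are mostly above the mean and blebbistatin 7, 2 and 4 mostly near or below it, so no block of colour separates the groups.

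Other genes of the same process were taken from lists of replication and G1/S genes outside the 40. Of 92 tested, 0 passed edgeR, where 0.606% of all tested genes passed. At an unadjusted p under 0.05, 6 were higher and 4 lower, where the background was 6.21% higher and 5.98% lower. Their median log2 fold change was 0.09, and 53 of 92 values (57.6%) were positive, against 54.1% of all tested genes. Among 25 other fork genes, 19 were positive and 3 had an unadjusted p under 0.05, all higher: Rnaseh2a, for a nuclease that removes RNA primers (0.77, adjusted p = 0.236), Prim2, for the other primase subunit (0.47, adjusted p = 0.251), and Rfc5, a clamp loader subunit (0.49, adjusted p = 0.381). Of 13 other licensing and firing genes 10 were positive and none had an unadjusted p under 0.05, with Cdc7, the kinase that fires origins, at 0.53 (adjusted p = 0.465) and the origin recognition subunits Orc3 and Orc4 at 0.21 and −0.25. Of 18 genes of nucleotide synthesis 8 were positive, with Shmt1, for folate metabolism, at 0.72 (adjusted p = 0.325) and Nme1, a nucleoside diphosphate kinase, at −0.38 (adjusted p = 0.405). Of 10 other replication chromatin genes 9 were positive, and the smallest p was that of Nasp, a histone chaperone, at 0.33 (adjusted p = 0.435).

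The other G1/S control genes include both drivers and inhibitors. Of their 26 values 7 were positive, against 54.1% of all tested genes. Their median was −0.05. Tfdp2, the partner of E2F proteins, had 71.3 ± 22.4 CPM in treated explants and 96.2 ± 7.86 CPM in controls (log2 fold change −0.43, edgeR adjusted p = 0.251). Cdkn2b, an inhibitor of the D cyclin kinases, had 16 ± 6.10 CPM in treated explants and 25.2 ± 8.70 CPM in controls with each of the 8 treated libraries under the middle of the controls (−0.65, adjusted p = 0.286). Ccna2, the cyclin of S phase and early mitosis, had 56.4 ± 18.9 CPM in treated explants and 37.2 ± 12.0 CPM in controls (0.60, adjusted p = 0.276). None of the 26 passed.

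Histone genes, many but not all of whose mRNAs are made in S phase, and mitosis genes were set beside the members. Of 40 histone genes, 36 were positive with a median log2 fold change of 0.48, 0 passed and 8 had an unadjusted p under 0.05, all higher. Over all tested genes 0.606% passed, 6.21% were higher and 5.98% lower at that unadjusted level, and 54.1% of values were positive. Hist1h2bm had 9.28 ± 2.55 CPM in treated explants and 5.26 ± 1.00 CPM in controls (0.82, edgeR adjusted p = 0.0912) and Hist1h2bl 34.2 ± 8.51 CPM in treated explants and 21.5 ± 5.25 CPM in controls (0.67, adjusted p = 0.102). Histone genes are near copies of each other, so reads may be split between them. Of 24 mitosis genes, 21 were positive with a median of 0.39 and 0 passed, 9 at an unadjusted p under 0.05, with Mki67 at 0.61 (adjusted p = 0.159), Cdca8 at 0.76 (adjusted p = 0.124), Bub1b at 0.56 (adjusted p = 0.171) and Ccnb1 at 0.22 (adjusted p = 0.816). The medians of the histone, mitosis and fork genes thus lay above that of the licensing genes at 0.16, a description with no test between the lists. The chromatin and repair genes (0.41) and nucleotide supply genes (0.26) also lay above it, and the cyclins with E2F1 (0.10) below. With the Y-linked covariate the fork and licensing medians were close, at 0.21 and 0.20.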

How the data were processed

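The authors deposited raw read counts per Ensembl gene in 16 columns, 1 per library. The submitters' processing notes name HTSeq 0.6.1p1, SAMtools 1.3, TopHat2 2.1.0, edgeR and Bowtie2 2.2.6.0, and build mm10 (GRCm38). Their roles, the annotation release, strand setting and filters were not given in these sources. RNA was amplified with an Ovation kit before library preparation, per the labels' protocols. As tested on the table, each gene exceeded 1 CPM in at least 4 libraries.

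Counts were scaled by TMM, filtered with filterByExpr and compared between groups by the robust quasi-likelihood test of edgeR 4.0.16 in R 4.3.3, without covariates. P-values were adjusted by Benjamini-Hochberg over 15675 genes, and calls were made under 0.05. Reported fold changes are blebbistatin minus control on the log2 scale, with 95% intervals. For log2 CPM the prior count was 2. Biological variation between libraries, as edgeR's coefficient, was 50.1%. Even the most alike libraries of a group (control 7 and 8) had counts that differed beyond sampling noise, with chi-square over degrees of freedom at 49.3. Positions and exon lengths are those of GENCODE M21 (GRCm38). DESeq2 1.42.0, limma voom (limma 3.58.1), other scalings and filters, covariates, a replicate block and leaving out libraries were alternatives.

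The members and lists were chosen with earlier results of these data known. The text names every member and, of each list of other replication and G1/S genes, up to 3 genes of smallest p. Mitosis and histone genes are named by the 2 of smallest p, with Mki67 and Ccnb1. Cell type markers with values were picked after their values were seen.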

Additional observations from a re-analysis of the deposited data

Results flagged for a closer look

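In each group of 8 libraries the highest or lowest value of each member was set against its neighbour, which made 78 groups, and chance marks about 1 in 20. The 4 marked values were all low. Orc1 stood at 0.342 CPM in blebbistatin 8, against 3.27 to 16.2 CPM in the other treated libraries. Rfc3 stood at 1.24 CPM in the same library, against 3.62 to 8.91 CPM. Ccnd2 stood at 483 CPM in control 6, against 830 to 1110 CPM in the other controls. Rrm1 stood at 67.5 CPM in that library too, against 115 to 162 CPM. Control 6 also had the highest macrophage sum of the controls, 4154 CPM, and the lowest epicardial sum, 1795 CPM, and the part of either in these values was not tested.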

How the results depend on the processing

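The medians of all members and of the licensing, fork and nucleotide supply genes stayed positive under every alternative run. The spread of single libraries within a group (SD 0.333 to 0.454) exceeds these medians. That SD is not the error of a difference between groups, and no such error was computed for the medians. As single libraries were left out the medians ran from 0.186 to 0.354 for all members and 0.0904 to 0.232 for licensing. For the fork they ran from 0.251 to 0.388 and for nucleotide supply from 0.154 to 0.397. Under the other alternatives the medians ran from 0.196 to 0.296, 0.118 to 0.266, 0.209 to 0.347 and 0.0862 to 0.279 in the same order. No member fell past the threshold. Over all genes the 95 calls became 424 with DESeq2, 170 with the stricter filter, 279 with the macrophage covariate, 21 with the Y-linked covariate and 44 to 206 as single libraries were left out, lowest without control 7 and highest without control 6. Clspn, the member called higher, was lost, leaving 0 members, with library totals only (adjusted p = 0.0501) and the Y-linked covariate, and the count was 0 to 1 as single libraries were left out. Labels of both groups share the numbers 1 to 8. Same-numbered libraries correlated at 0.00394 to 0.279 in their deviations, against a median of −0.0321 for differently numbered ones. Of the 8 treated libraries, 2 correlated best with their own number. Whether the numbers mark pairs is not settled by these values, and the main fit does not use them. With the replicate block edgeR called 177 genes and 0 members (Clspn adjusted p = 0.0616).

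Values near 0 changed sign, none of them called. With the Y-linked covariate these were Ccne2 (−0.0136), Mcm2 (−0.22), Mcm10 (0.0852), Prim1 (−0.117), Rfc4 (0.00423) and Tyms (−0.0815). With limma voom they were Ccne1 (0.0197), Orc1 (−0.478), Mcm10 (0.0692), Prim1 (−0.0216) and Chaf1a (−0.0052), and with the macrophage covariate Chaf1a (−0.0854). With the replicate block they were Orc1 (−0.266), Mcm2 (−0.0257), Mcm10 (0.0513) and Prim1 (−0.0318). Without blebbistatin 3 and control 6, an alternative chosen after seeing the data, they were Ccne2 (−0.0519), Mcm2 (−0.059), Mcm4 (−0.00107), Pola1 (−0.0243), Prim1 (−0.129), Pold1 (−0.0458) and Tyms (−0.0542). As single libraries were left out, the log2 fold change ran from −0.13 to 0.238 for Ccne2, −0.163 to 0.173 for Mcm2, −0.0873 to 0.112 for Mcm4, −0.0304 to 0.136 for Mcm7, −0.0728 to 0.216 for Prim1, −0.202 to 0.285 for Chaf1a, −0.342 to 0.106 for Rfc4, −0.0561 to 0.236 for Cdc45, −0.168 to 0.187 for Pola1, −0.0609 to 0.142 for Tyms, −0.366 to 0.0651 for Ccne1, −0.365 to 0.247 for Orc1 and −0.249 to 0.132 for Mcm10. The cause of these changes was not tested.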

Other observations

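Members differed in how closely they followed the mitosis genes from explant to explant. Over 16 libraries, as deviations from the group means of log2 CPM, the median correlation of Pole with the 24 mitosis genes was 0.655, and that of Ccne2 was 0.606. The values of Uhrf1, Mcm5, Ccne1, Mcm4, Mcm3 and Dtl lay between 0.553 and 0.578. At the other end were Gins2 (−0.0476), Ccnd2 (−0.0439), Rfc3 (−0.0223), Ung (0.0264), Gins1 (0.0323), Rrm1 (0.0451) and Mcm7 (0.0502). Among themselves the mitosis genes had a median pairwise correlation of 0.547, the licensing genes 0.31, the fork genes 0.153 and all 39 members 0.164. The libraries share their depth and scaling across genes and many members are low, so these are descriptions with no test.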
